A study of Mus musculus with 18 samples.

Results

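The homeostatic and tissue-resident chemokines described here are 10 genes, Ccl6, Ccl9, Ccl17, Ccl22, Ccl24, Ccl20, Ccl28, Cxcl12, Cxcl13 and Cxcl14, among 24346 gene symbols in the deposited tables. They were chosen by symbol and were all found. They were set against 14 chemokines that inflammation induces, among them Ccl2, Ccl5 and Cxcl10. Poly(A) RNA of liver, intestine and lung was sequenced from male C57BL/6 mice, 9 weeks old, 24 h after cecal ligation and puncture (CLP), an operation that causes sepsis from gut bacteria. All mice in the 18 libraries had this operation. Control mice received no hydrogen, and H2 mice inhaled 7% hydrogen without a break from the end of surgery. H2 mice shared a cage inside a gas box, so gas and housing cannot be told apart. Each organ has 3 control and 3 H2 libraries, numbered 1 to 3. The labels name neither the mouse behind a library nor which organs share a mouse, so the p-values measure the spread between these libraries, which may be technical in part. Mice of 1 sex, 1 strain and 1 time point were sampled, and sham-operated mice are not analysed here.

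Chemokines are small secreted proteins that steer leukocytes through G-protein-coupled receptors. Most of those studied in sepsis are switched on by bacterial products and cytokines. The genes described here are instead made by resting tissue cells, where they hold lymphocytes, dendritic cells, eosinophils and stem cells in place. Several of them are also under the control of cytokines, so the border between homeostatic and induced is not sharp. Ccl6 and Ccl9 come from macrophages and other myeloid cells and bind the receptor Ccr1. Ccl17 and Ccl22 come from dendritic cells and macrophages and draw T cells through Ccr4. Ccl24 draws eosinophils through Ccr3. Ccl20 and Ccl28 are epithelial and act through Ccr6 and Ccr10. Cxcl12 is a stromal and endothelial factor that signals through Cxcr4 and is removed by the scavenger receptor Ackr3. Cxcl13 guides B cells to follicles through Cxcr5, and Cxcl14 is an epithelial and stromal chemokine whose receptor is not settled.

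The promoters shown are those of the 4 members with a match to a motif searched (Ccl9, Ccl17, Ccl20 and Cxcl14), and of Ccl6 and Ccl22, the neighbours of Ccl9 and Ccl17 on the chromosome. Each run is the 250 bases before the transcription start, 5′ to 3′ on the gene's strand, from RefSeq on build GRCm38.p6, which is mm10. Capitals mark matches to the motifs searched. Ccl6 and Ccl9 lie on the minus strand of chromosome 11, 9.25 kb apart, at chr11:83587882-83593087 and chr11:83572919-83578636 in GENCODE vM21. Their promoters are chr11:83593088-83593337 and chr11:83578637-83578886.
Ccl6: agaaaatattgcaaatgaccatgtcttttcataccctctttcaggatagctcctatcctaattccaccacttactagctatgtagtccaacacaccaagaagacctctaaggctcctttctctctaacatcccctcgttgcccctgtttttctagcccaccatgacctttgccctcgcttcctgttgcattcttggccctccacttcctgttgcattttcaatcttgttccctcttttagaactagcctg
Ccl9: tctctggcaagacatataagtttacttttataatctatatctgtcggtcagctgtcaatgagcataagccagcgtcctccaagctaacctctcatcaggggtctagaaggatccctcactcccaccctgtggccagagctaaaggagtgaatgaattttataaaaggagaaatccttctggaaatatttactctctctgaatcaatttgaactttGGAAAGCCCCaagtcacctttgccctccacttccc
The longest run of bases shared by the Ccl6 and Ccl9 promoters, GCCCTCCACTTCC, has 13 bases and begins 55 bases before the start of Ccl6 and 14 before that of Ccl9. The capitals in the Ccl9 promoter are a kappaB match, the motif bound by NF-kappaB.

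Ccl22 and Ccl17 lie on the plus strand of chromosome 8, 58.8 kb apart, at chr8:94745590-94751699 and chr8:94810453-94812036. Their promoters are chr8:94745434-94745683 and chr8:94810203-94810452, the former set by a RefSeq start that differs from the GENCODE start. Cxcl14 is at chr13:56288643-56296551 on the minus strand, with its promoter at chr13:56296552-56296801. Ccl20 is at chr1:83116766-83119167 on the plus strand, with its promoter at chr1:83116516-83116765.
Ccl17: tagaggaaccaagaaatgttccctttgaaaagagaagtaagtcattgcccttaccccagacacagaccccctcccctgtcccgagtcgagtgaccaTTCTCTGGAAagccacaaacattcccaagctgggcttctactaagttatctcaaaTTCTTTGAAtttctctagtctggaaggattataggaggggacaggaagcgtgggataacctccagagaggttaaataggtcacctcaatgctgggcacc
Ccl22: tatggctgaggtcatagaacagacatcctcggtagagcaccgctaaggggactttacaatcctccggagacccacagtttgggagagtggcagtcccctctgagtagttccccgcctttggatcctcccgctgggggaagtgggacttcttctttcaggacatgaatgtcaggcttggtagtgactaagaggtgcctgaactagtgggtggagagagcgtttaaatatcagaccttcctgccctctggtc
Cxcl14: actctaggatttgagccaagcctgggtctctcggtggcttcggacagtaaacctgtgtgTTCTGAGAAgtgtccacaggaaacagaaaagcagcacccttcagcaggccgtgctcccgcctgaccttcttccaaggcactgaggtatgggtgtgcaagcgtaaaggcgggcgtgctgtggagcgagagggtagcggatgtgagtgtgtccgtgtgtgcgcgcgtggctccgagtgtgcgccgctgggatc
Ccl20: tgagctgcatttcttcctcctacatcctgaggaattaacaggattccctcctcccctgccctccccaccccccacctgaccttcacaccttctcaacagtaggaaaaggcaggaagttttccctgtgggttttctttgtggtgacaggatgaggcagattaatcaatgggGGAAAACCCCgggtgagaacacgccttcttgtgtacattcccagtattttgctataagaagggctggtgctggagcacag
Motifs were searched on both strands in the 9 members found in the promoter table (Ccl24 is not printed) and in all 32851 promoters. The STAT motif TTCNNNGAA was found in Ccl17 and Cxcl14, against 7.02% of all promoters. The STAT6-type motif, with 1 more free base between the same arms and bound by the factor downstream of interleukin-4, was found in Ccl17, against 5.85%. The kappaB motif was found in Ccl9 and Ccl20, against 7.25%, and in 4 of the 7 induced chemokines in the table. The hypoxia element core ACGTG was found in 0 of 9, against 16.6%. In the sequences printed the capitals of Ccl17 are the STAT6-type match, at bases -154 to -145 from the start, and the STAT match, at -99 to -91, which do not overlap. Those of Cxcl14 are the STAT match and those of Ccl20 the kappaB match. Ccl6 and Ccl22 hold none of these motifs in this window.

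Levels are given in FPKM, which counts fragments relative to transcript length and library depth, so that they can be compared between genes. Changes are differences of log2(FPKM + 1), H2 minus control, with the SE of limma's moderated test (n = 3 per group). The added 1 makes the changes of low genes smaller. Genes with a mean of at least 1 FPKM over the 6 libraries of an organ were tested there, and a gene was called at a Benjamini-Hochberg adjusted p under 0.05 over all tested genes. The organ markers fitted the labels, with the hepatocyte gene Alb, the enterocyte gene Vil1 and the surfactant gene Sftpc each highest in the 6 libraries of its organ. The implied depth was 8.91 to 16.2 M fragments. Summed FPKM was 1142966 in H2 intestine 2, against 712858 to 850609 in the other intestine libraries. By root mean square distance over tested genes, control liver 2 and control lung 3 lay nearer to the H2 group of their organ (0.338 and 0.401 log2 units) than to the other control libraries (0.582 and 0.597). Control intestine 2 and H2 intestine 3 also lay nearer to the other group, by a smaller margin (0.534 against 0.566, and 0.521 against 0.555).

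In septic mice without hydrogen, 7 of the 10 genes had their highest mean in the lung, Ccl28 and Ccl24 in the intestine, and Cxcl12 in the liver. Ccl6 had the largest share of the summed level of the 10 genes in all 12 intestine and lung libraries (34.8% to 68.8%). The mean FPKM of Ccl6 in control libraries was 402 in the lung, 174 in the intestine and 26.4 in the liver, and the lung and intestine libraries overlapped. Cxcl14 had 231 FPKM in the lung against 7.72 in the intestine and 7.35 in the liver, which overlapped each other. Ccl17 followed the order lung (95.4), intestine (11.9) and liver (1.27), with no overlap between neighbours. Ccl28 had 27.2 FPKM in the intestine, 1.09 in the lung and 0.277 in the liver, again without overlap. Cxcl13 had 132 and 97.9 FPKM in the lung and the intestine, which overlapped, and 28.0 in the liver. Cxcl12 had 37.6 FPKM in the liver and 34.2 in the lung, which overlapped, and 13.8 in the intestine.

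Between control organs, 8 of 10 genes were called for liver against intestine (7 lower in the liver), 9 for liver against lung (all 9 lower in the liver) and 6 for intestine against lung (5 lower in the intestine). Organs differ in most genes, with 70.4%, 84.9% and 70.0% of 14561 genes called, and 58.4%, 76.1% and 52.3% called lower in the first organ of each pair. The median difference of all genes was -0.60, -1.13 and -0.47, so the direction in FPKM is that of most genes. For liver against lung, 11086 of 12368 called genes were lower in the liver, but 5059 of 9911 after quantile normalization and 5702 of 10164 after median-of-ratios scaling. In both of these fits 5 of the 10 genes were lower in the liver than in the lung (Ccl6, Ccl17, Ccl22, Cxcl13 and Cxcl14), Cxcl12 was higher, and Ccl9, Ccl20, Ccl24 and Ccl28 did not pass. A gene that is high in a single organ passed the filter through that organ, so these counts are a description. In H2 libraries the order changed for 5 of the 10 genes. Ccl6, Ccl9 and Ccl20 had their highest mean in the intestine in place of the lung, though the H2 libraries of these organs overlapped for Ccl9 and Ccl20, and 4 of 10 genes were then highest in the lung. The plot of levels by library shows these orders.

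**Figure D1:**
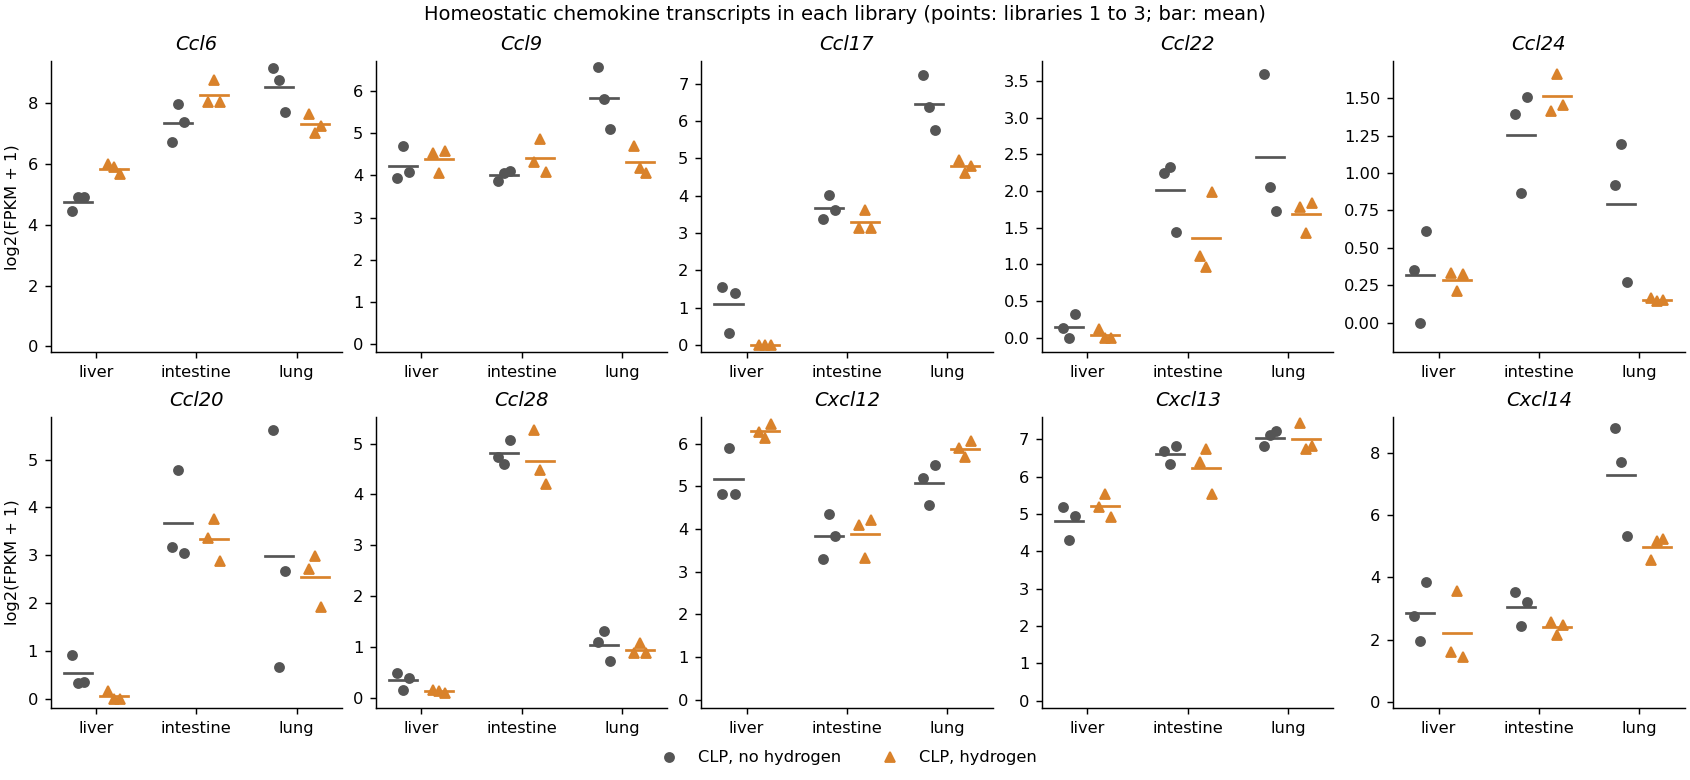
Level of each homeostatic chemokine, log2(FPKM + 1), in the liver, intestine and lung, with circles for control and triangles for H2 libraries and a bar at the group mean (n = 3). Ccl6 lies higher in the H2 libraries of the liver and intestine and lower in those of the lung, and the control lung libraries of Ccl17 and Cxcl14 spread downward towards the H2 level.

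Within single organs, limma called 0 of 5 tested genes in the liver, 0 of 10 in the intestine and 0 of 9 in the lung. It called few genes of any kind there, 0.0199%, 0.0084% and 0.00745% of those tested. At an unadjusted p under 0.05, Ccl6 and Cxcl12 were higher in the liver, and Ccl6 was higher in the intestine. In the lung Cxcl12 was higher and Ccl6, Ccl9, Ccl17 and Cxcl14 were lower at that level. Of all tested genes 10.9% were higher and 10.2% lower at that level in the liver, 6.51% and 5.96% in the intestine, and 10.5% and 12.5% in the lung. Groups did not overlap for 2 genes in the liver (Ccl6 and Cxcl12, both higher with H2), for 1 in the intestine (Ccl6, higher) and for 5 in the lung (Cxcl12 higher, the same 4 lower). Over all tested genes the groups did not overlap for 25.3%, 19.3% and 30.0%. Over the mean of the 3 organ changes, which uses all 18 libraries, Ccl17 was called lower and Cxcl12 higher among the 10 genes. Of 14561 genes 8.74% were called there.

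**Figure D2:**
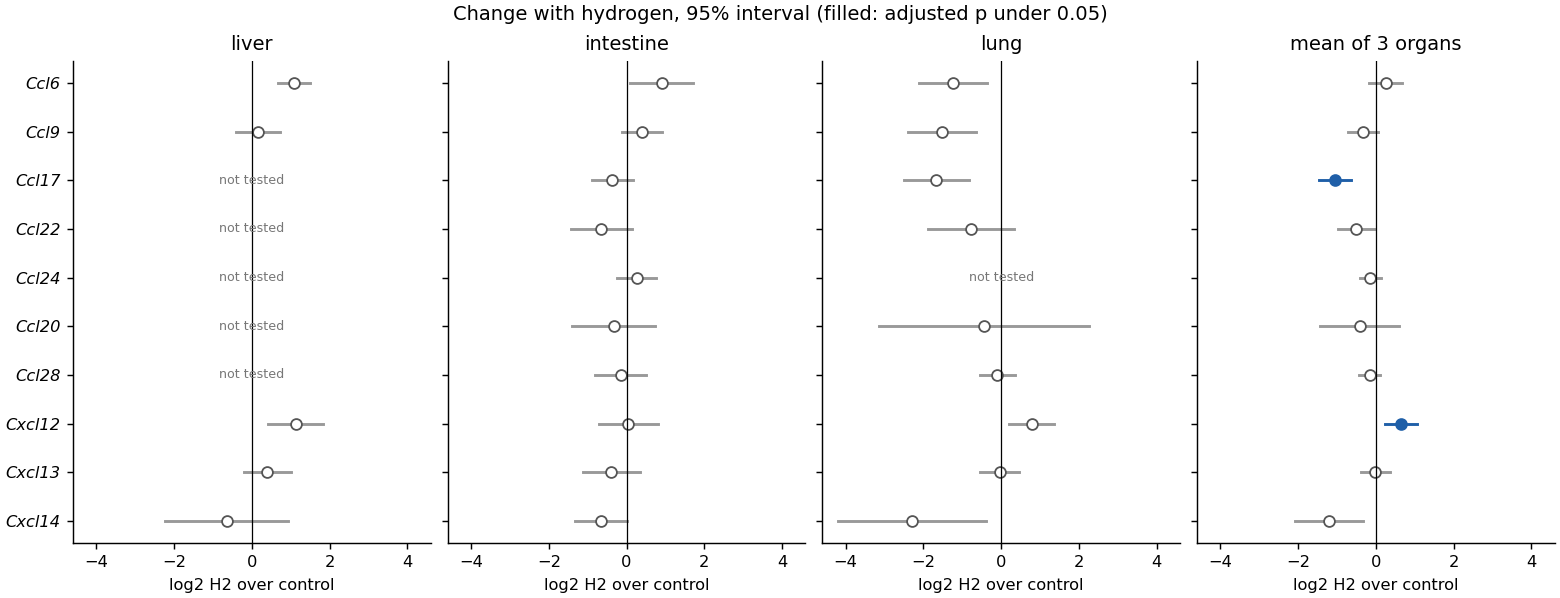
Change of each gene with hydrogen, log2 of H2 over control on FPKM + 1, with its 95% interval, in each organ and as the mean of the organs (n = 3 per group and organ). Filled points passed an adjusted p of 0.05, which Ccl17 (-1.04) and Cxcl12 (0.65) did for the mean of the organs. Genes under the filter are marked as not tested.

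Among the myeloid chemokines, Ccl6 went in opposite directions in different organs. In the liver it measured 20.8, 29.3 and 29.0 FPKM in control libraries and 62.5, 58.3 and 49.4 in H2 libraries, so that every H2 library was above every control library. The liver change was 1.09 ± 0.17 (adjusted p = 0.128). In the intestine Ccl6 measured 105, 250 and 166 FPKM in control libraries and 261, 429 and 261 in H2 libraries. These groups did not overlap either, though control intestine 2 came within a few percent of H2 libraries 1 and 3, and the change was 0.91 ± 0.35 (adjusted p = 0.380). In the lung the order was the other way, with 566, 431 and 209 FPKM in control libraries and 200, 130 and 150 in H2 libraries. Control lung 3 lay just above H2 lung 1, and the lung change was -1.23 ± 0.37 (adjusted p = 0.172).

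Ccl9, the neighbour of Ccl6, showed the lung difference and less of the others. Lung levels of Ccl9 were 94.4, 55.6 and 33.5 FPKM in control libraries and 24.8, 17.0 and 15.7 in H2 libraries, all below the controls, with a change of -1.53 ± 0.37 (adjusted p = 0.172). Intestine levels were 13.7, 15.7 and 16.1 FPKM in control libraries and 18.9, 28.0 and 15.8 in H2 libraries, which overlapped (0.40 ± 0.22). In the liver control libraries had 14.2, 24.9 and 15.9 FPKM and H2 libraries 22.3, 15.6 and 22.8, with a change of 0.16 ± 0.24.

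The test of the difference itself, the H2 change in the intestine minus that in the lung, called Ccl6 (2.14 ± 0.49) and Ccl9 (1.93 ± 0.45), each with an adjusted p of 0.0442 in limma, and 1.66% of all genes. Both calls lie close to the threshold. They were lost in 13 of 18 fits without 1 library for Ccl6 and in 14 of 18 for Ccl9, where adjusted p ran from 0.00258 to 0.108 and from 0.00309 to 0.115. The difference kept its sign in all these fits, at 1.83 to 2.56 for Ccl6 and 1.56 to 2.30 for Ccl9. The liver minus lung difference of Ccl6 was 2.32 ± 0.49 (adjusted p = 0.0544) and that of Ccl9 1.69 ± 0.45 (adjusted p = 0.111). That test called 0 of the 10 genes, these 2 having an unadjusted p under 0.05, and 0.364% of all genes. The liver minus intestine test called 0 of the 10 genes and 0.254% of all genes, with an unadjusted p under 0.05 for Cxcl12 alone.

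In the liver, lists of myeloid cell markers differed in direction. Of 12 Kupffer and resident macrophage markers, 11 were higher with an unadjusted p under 0.05 (10.9% of all tested genes were) and 0 were called. Their summed level was 228 to 260 FPKM in control and 308 to 388 FPKM in H2 liver libraries, and 0 of the 12 were at 0 in all 6. The Kupffer cell lectin Clec4f measured 6.63, 5.83 and 3.85 FPKM in control and 13.5, 18.6 and 19.2 FPKM in H2 liver libraries. Of 5 tested alveolar macrophage markers 3 were lower in the liver and 0 higher at that level (10.2% of all genes lower), with sums of 166 to 321 and 123 to 189 FPKM and Ear1 at 0 in all 6. This list was drawn up for a lung cell, so in the liver it describes the genes and not a cell type. It shares Marco with the resident macrophage list and Chil3 with the monocyte list, so the lists are not independent. Of 4 tested monocyte markers 2 were lower and 0 higher in the liver, with sums of 239 to 826 and 62.6 to 107 FPKM. In the liver Ccr2 was at most 0.899 FPKM and Chil3 at most 10.2 FPKM. Most of the sum thus came from other genes on the list, and it is weak evidence of monocyte RNA. In the intestine the Kupffer and resident macrophage sum was 132 to 160 FPKM in control and 114 to 185 FPKM in H2 libraries, with Clec4f and Vsig4 at 0 in all 6. The lung sum was 373 to 407 and 308 to 388 FPKM. In the lung 7 of 8 monocyte markers were lower with H2 at an unadjusted p under 0.05, against 12.5% of all genes (sums of 1236 to 1465 and 968 to 1176 FPKM). Of 7 alveolar macrophage markers 0 were higher and 0 lower in the lung at that level, with sums of 1127 to 2126 and 1341 to 1492 FPKM. Of 9 tested neutrophil markers 3 were higher and 3 lower in the lung (10.5% and 12.5% of all genes). In the liver 0 of 6 neutrophil markers were at that level. The part of these cells in the Ccl6 and Ccl9 differences was not tested. In tissue RNA, fewer cells of a type and less RNA per cell cannot be told apart.

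Ccr1, the receptor of both proteins, fell over the mean of the organs (-0.59 ± 0.13, adjusted p = 0.0193). Lung libraries held 54.7, 43.7 and 33.3 FPKM in the control and 25.3, 28.9 and 20.8 in the H2 group, without overlap. In the intestine the values were 10.6, 5.90 and 6.63 against 6.98, 4.51 and 4.32 FPKM, and in the liver all 6 were under 1 FPKM. The mean of Ccr1 was lower with H2 in the liver and intestine, where Ccl6 stood higher, and in the lung, where Ccl6 stood lower. In the intestine the Ccr1 groups overlapped (-0.46 ± 0.25, adjusted p = 0.465), and in the liver Ccr1 was under the filter and not tested.

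Of the Ccr4 ligands, Ccl17 was lower with H2 over the mean of the organs. Lung levels of Ccl17 were 151, 82.8 and 52.9 FPKM in control libraries and 30.2, 23.5 and 26.8 in H2 libraries. The H2 libraries lay close together and below every control library, with a change of -1.67 ± 0.35 (adjusted p = 0.172). In the intestine the values were 9.30, 15.2 and 11.3 FPKM in control and 7.78, 11.3 and 7.85 in H2 libraries, which overlapped at the margin (-0.37 ± 0.22, adjusted p = 0.493). In the liver Ccl17 was low in control libraries (1.95, 0.253 and 1.62 FPKM) and listed at 0 in all 3 H2 libraries. At the implied depth 1 fragment is worth 0.151 to 0.190 FPKM there, so the control values stand for about 12.3, 1.53 and 9.33 fragments. The gene was under the filter in the liver and was not tested there, and no fold is given against 0.

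The mean change of Ccl17 over the organs was -1.04 ± 0.19 (adjusted p = 0.0125). The 3 organs have equal weight in this mean, so it draws in part on the liver values. Those were under the filter, at most 1.95 FPKM in control and 0 in all H2 libraries. The mean change passed in all 10 alternative fits of the 18 libraries and in all 18 fits without 1 library, where adjusted p ran from 0.000749 to 0.0316. The size depends on the constant added to FPKM, from -1.84 with 0.1 to -0.71 with 5. The change in the intestine minus that in the lung was 1.30 ± 0.47 (adjusted p = 0.143), so the organs' changes were not called different.

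Ccl22, which shares the receptor Ccr4, did not pass. Lung levels of Ccl22 were 11.05, 3.17 and 2.32 FPKM in control libraries and 2.45, 1.70 and 2.56 in H2 libraries, where control lung 1 alone stood high (-0.78 ± 0.46). Intestine levels were 3.76, 4.001 and 1.73 FPKM in control libraries and 1.17, 0.955 and 2.94 in H2 libraries, which overlapped (-0.65 ± 0.34). The mean change over the organs was -0.51 ± 0.22 (adjusted p = 0.133). The receptor Ccr4 measured 4.86 to 8.15 FPKM in control and 5.82 to 17.8 FPKM in H2 intestine libraries (0.52 ± 0.37), at most 0.237 FPKM in the lung, and 0 in every liver library. The summed level of 10 dendritic cell markers in the lung was 34.3 to 49.4 FPKM in control and 45.3 to 58.3 in H2 libraries, with 2 of 9 tested higher and 1 lower at an unadjusted p under 0.05 (10.5% and 12.5% of all genes). In the intestine it was 14.6 to 20.9 and 9.39 to 16.5 FPKM, with 0 of 5 higher and 2 lower (6.51% and 5.96% of all genes), and the part of these cells in the Ccl17 values was not tested.

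The eotaxin gene Ccl24 was low in every organ, and in the liver it was at most 0.527 FPKM. In the intestine it measured 1.62, 0.821 and 1.84 FPKM in control libraries and 1.67, 2.17 and 1.75 in H2 libraries, which overlapped (0.26 ± 0.22). In the lung it was under the filter, at 0.888, 1.29 and 0.206 FPKM in control libraries and 0.121, 0.103 and 0.109 in H2 libraries. The H2 lung libraries were all lower, with control lung 3 next to them. The difference between intestine and lung in its change was 0.90 ± 0.30 (adjusted p = 0.120). The eosinophil receptor Ccr3 was at most 0.168 FPKM in any library. The eosinophil markers in the lung summed to 3.62 to 6.11 FPKM in control and 5.44 to 6.16 in H2 libraries. Most of this sum was a single marker, Siglecf, at 2.88 to 6.13 FPKM over the 6 lung libraries. Epx was at 0 in all 6 and Prg2 at most 0.936 FPKM, so the sum is weak evidence of eosinophil RNA.

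The epithelial chemokines gave no call. Ccl20 measured 8.06, 26.4 and 7.29 FPKM in control and 9.25, 12.6 and 6.38 in H2 intestine libraries (-0.33 ± 0.46), and only control intestine 2 stood out. Its lung levels were 48.0, 0.589 and 5.38 FPKM in control and 5.53, 6.95 and 2.76 in H2 libraries. The lung change of -0.45 ± 1.13 thus rests on control lung 1, and without it the change was 0.87. Ccl28, which draws antibody-secreting cells to mucosa, measured 25.7, 23.4 and 32.7 FPKM in control and 37.6, 21.3 and 17.5 in H2 intestine libraries (-0.15 ± 0.29, 95% interval -0.82 to 0.51). The H2 libraries of Ccl28 enclosed the control range, and no difference was detected. In the intestine the markers of follicle-associated epithelium summed to 89.0 to 255 FPKM in control and 126 to 306 FPKM in H2 libraries. Most of this sum came from other genes than Gp2 (0.425 to 4.12 FPKM) and Spib (2.38 to 5.90 FPKM). Control intestine 1 had the highest control sum and the lowest Gp2, so the sum is weak evidence of this epithelium. Ccr6 was at most 1.93 FPKM and Ccr10 at most 0.453 FPKM in any library.

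Cxcl12 was higher with H2 in the liver and the lung but not in the intestine. In the liver it measured 27.1, 58.7 and 27.1 FPKM in control libraries and 76.6, 69.7 and 87.8 in H2 libraries. Control liver 2 stood far above the other controls and below every H2 library, and the change was 1.12 ± 0.30 (adjusted p = 0.168). Lung levels of Cxcl12 were 35.9, 22.5 and 44.1 FPKM in control libraries and 58.2, 50.5 and 65.4 in H2 libraries, again without overlap (0.79 ± 0.24, adjusted p = 0.172). Intestine levels were 8.81, 19.5 and 13.3 FPKM in control libraries and 16.0, 9.06 and 17.4 in H2 libraries, which overlapped throughout (0.04 ± 0.33).

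Over the mean of the organs Cxcl12 rose by 0.65 ± 0.19 (adjusted p = 0.0464). The call depended on the fit. It passed in 7 of 10 alternative fits and in 4 of the 18 fits without 1 library, those without control liver 2, control intestine 2, H2 intestine 2 or control lung 3, with adjusted p from 0.00798 to 0.0984 over the 18. The change in the liver minus that in the intestine was 1.08 ± 0.47 (adjusted p = 0.293), so the organs were not called different.

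The scavenger receptor Ackr3, which takes up Cxcl12, was lower with H2 in each organ. Lung levels of Ackr3 were 194, 173 and 38.0 FPKM in control libraries and 23.8, 18.4 and 25.3 in H2 libraries. Intestine levels were 9.70, 6.79 and 9.72 against 3.86, 2.74 and 4.84 FPKM, and in the liver 4.98, 0.833 and 2.84 against 0.682, 0.418 and 0.246 FPKM. The groups did not overlap in any organ, and the mean change was -1.51 ± 0.28 (adjusted p = 0.0125), which passed in all 18 fits without 1 library. The signalling receptor Cxcr4 did not pass, at 17.5 to 21.9 FPKM in control and 19.4 to 22.8 in H2 lung libraries and a mean change of -0.09 ± 0.16 (adjusted p = 0.740). Dpp4, a peptidase that trims Cxcl12, rose over the mean of the organs (0.76 ± 0.16, adjusted p = 0.0191).

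Markers of cells that make Cxcl12 gave no call. Of 9 tested endothelial markers, 6 in the liver were higher with H2 at an unadjusted p under 0.05 and 0 lower (10.9% and 10.2% of all genes), but their summed level overlapped (42.1 to 73.6 FPKM in control and 57.6 to 66.1 in H2 libraries). In the lung 5 were higher and 1 lower (10.5% and 12.5% of all genes), with sums of 912 to 1701 and 909 to 1264 FPKM. Fibroblast and stromal markers summed to 123 to 170 and 135 to 164 FPKM in the liver, with 0 of 7 at that level. In the lung they summed to 594 to 705 and 544 to 686 FPKM, with 3 of 10 higher and 1 lower. Of both lists 0 markers were at 0 in all 6 libraries of either organ, and their part in the Cxcl12 values was not tested.

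The B cell chemokine Cxcl13 was among the most abundant of the 10 genes, and no difference with H2 was detected. Lung levels of Cxcl13 were 111, 137 and 148 FPKM in control and 173, 107 and 112 in H2 libraries, with a change of -0.04 ± 0.21 and a 95% interval from -0.54 to 0.47. In the intestine it measured 101.3, 79.4 and 113 against 82.7, 106 and 45.2 FPKM (-0.39 ± 0.32), and in the liver 35.6, 18.8 and 29.8 against 35.5, 45.0 and 29.3 FPKM (0.40 ± 0.26). The groups overlapped in every organ. The lung interval leaves out changes of 1 log2 unit or more in either direction. Its receptor Cxcr5 measured 0.243 to 2.07 FPKM in control and 0.299 to 1.85 in H2 intestine libraries, and B cell markers there summed to 4.40 to 41.5 and 5.85 to 43.8 FPKM, so libraries of both groups held little and much B cell RNA.

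Cxcl14 had a wide spread among control lung libraries. It measured 444, 209 and 39.6 FPKM there and 22.7, 35.0 and 36.6 FPKM in the H2 lung libraries. The groups did not overlap, but control lung 3 was close to the H2 libraries, and the change was -2.30 ± 0.80 (adjusted p = 0.185). In the intestine it measured 10.5, 4.38 and 8.29 against 4.99, 3.40 and 4.51 FPKM (-0.66 ± 0.29), and in the liver 5.80, 2.87 and 13.4 against 2.06, 10.8 and 1.72 FPKM (-0.65 ± 0.67). The mean change was -1.20 ± 0.42 (adjusted p = 0.0757).

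Control lung 3 and control liver 2 decide how many of these genes pass. Without control lung 3, which leaves 2 control libraries, limma called 5 of the 9 lung genes where 24.5% of all tested genes passed. Ccl6 (-1.65, adjusted p = 0.00913), Ccl9 (-1.89), Ccl17 (-2.03) and Cxcl14 (-3.27) fell and Cxcl12 (0.99) rose. Without control liver 2, 2 of 5 liver genes passed, Ccl6 (1.17, adjusted p = 0.00587) and Cxcl12 (1.49, adjusted p = 0.00109), where 28.2% of all tested genes did. Without both, 5 of the 10 genes were called over the mean of the organs (Ccl17, Ccl22, Ccl24 and Cxcl14 lower, Cxcl12 higher), against 28.6% of all genes. Ccl24 passed the filter through the intestine alone, where its change was 0.26. Its lower mean thus rests on lung and liver values under the filter, and Ccl17 and Ccl22 were under it in the liver. These fits were chosen because the libraries resemble the other group, which favours calls, so they describe the remaining libraries. With all 18 libraries in a single fit, Ccl9 and Ccl17 were called in the lung (5.05% of all genes).

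Set against the induced chemokines, the homeostatic genes did not share a direction. Of the induced chemokines 12 of 12 tested were lower with H2 in the liver, 12 of 13 in the intestine and 13 of 13 in the lung, with medians of -1.44, -1.64 and -1.48. The exception in the intestine was Ccl11 (0.03 ± 0.45). Of the homeostatic genes 1 of 5, 6 of 10 and 8 of 9 were lower, with medians of 0.40, -0.24 and -0.78. All tested genes had medians of -0.02, 0.02 and 0.00 and were lower in 53.2%, 47.8% and 50.5%. Over the mean of the organs 13 of 13 induced chemokines were lower, with a median of -1.85, and 8 were called lower and 0 higher. Those of smallest p were Ccl5 (-1.89 ± 0.31), Cxcl10 (-2.08 ± 0.39) and Ccl4 (-2.18 ± 0.45). Of the homeostatic genes 8 of 10 were lower there, with a median of -0.24, and Ccl17 was the only one called lower. Of all 14561 genes 49.1% were lower there, and 682 were called lower and 591 higher. The median of the homeostatic genes was thus positive in the liver and negative in the lung, and that of the induced genes was negative in every organ. No test was made between the lists.

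**Figure D3:**
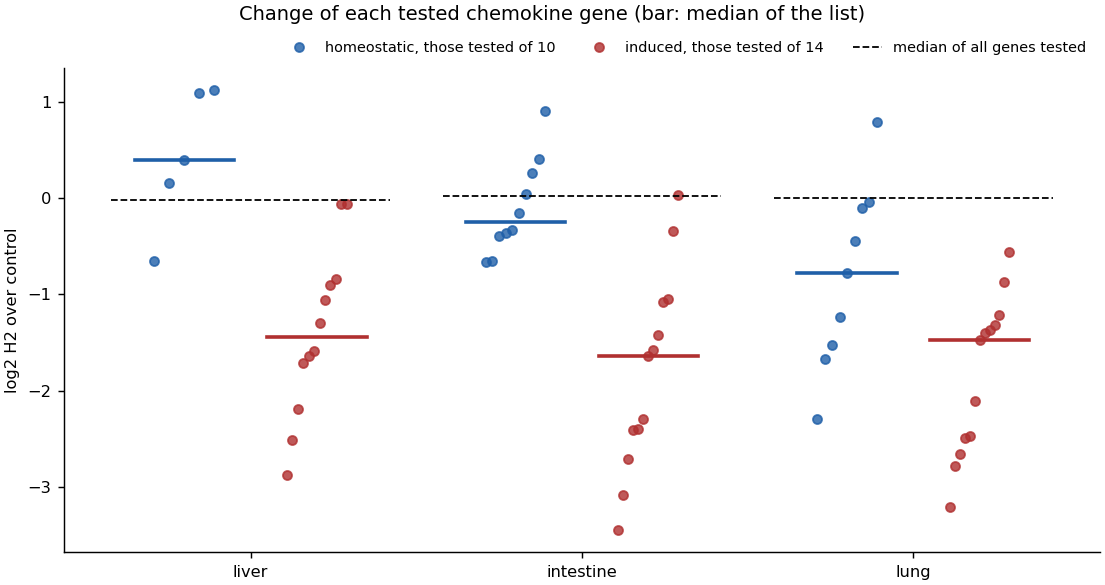
Change with hydrogen, log2 of H2 over control on FPKM + 1, of each tested homeostatic and induced chemokine in each organ, with a bar at the median of the list and a dashed line at the median of all tested genes. The induced genes lie below the dashed line in the liver and lung without exception, and the homeostatic genes lie on both sides of it.

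Summed levels were also set side by side in each library. In the liver the homeostatic genes summed to 107, 135 and 118 FPKM in control libraries and 200, 200 and 191 in H2 libraries, while the induced genes summed to 560, 444 and 690 and to 388, 527 and 420 FPKM. The first sum was higher in every H2 liver library, and the second overlapped. Cxcl1 alone made up 64.7% to 97.6% of the second. In the lung both sums were lower in every H2 library, with 1463, 944 and 535 against 518, 372 and 413 FPKM for the homeostatic genes and 1374, 526 and 207 against 197, 128 and 127 FPKM for the induced. In the intestine the homeostatic sums were 288, 439 and 371 against 441, 623 and 380 FPKM, and the induced 1002, 315 and 521 against 305, 144 and 147 FPKM. Ccl11 was the largest part of the induced sum in every H2 intestine library (25.25% to 43.02%). The ratio of homeostatic to induced transcripts was higher in every H2 library than in every control library of its organ. For single genes the groups did not overlap in 25.3% (liver), 19.3% (intestine) and 30.0% (lung) of those tested, and no such share was found for ratios. The ratio follows the genes of highest level, with Ccl6 at 34.8% to 68.8% of the homeostatic sum in intestine and lung libraries. In the lung it was higher although the homeostatic sum was lower. It ran from 0.171 to 0.304 in control and 0.379 to 0.514 in H2 liver libraries, from 0.287 to 1.39 and 1.45 to 4.32 in the intestine, and from 1.07 to 2.59 and 2.63 to 3.25 in the lung. Control intestine 2 and control lung 3 came close to the lowest H2 library of their organ. No test was made of these sums.

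**Figure D4:**
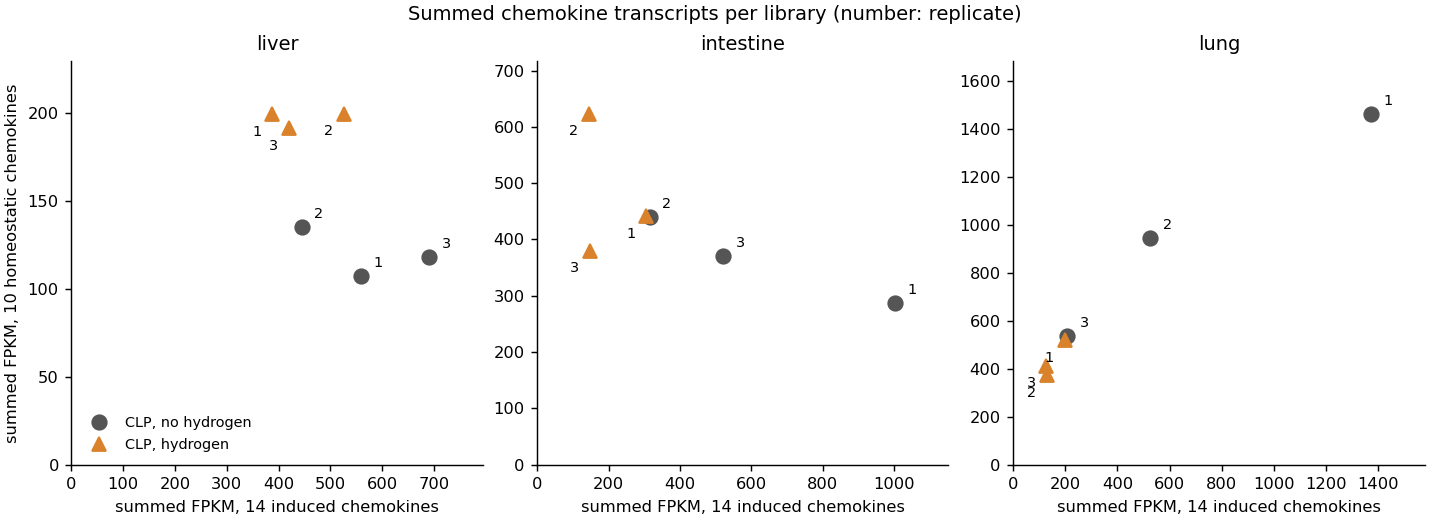
Summed FPKM of the 10 homeostatic chemokines against that of the 14 induced chemokines in each library, by organ, with circles for control and triangles for H2 libraries and the replicate number beside each. In the liver the H2 libraries lie higher (191 to 200 against 107 to 135 FPKM), in the intestine further left, and in the lung control lung 3 lies beside the H2 libraries.

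Of the genes around these chemokines, 20 regulators of their production or activity were listed, of which 15 were tested over the mean of the organs. Of these 5 were called lower and 1 higher, with a median of -0.43, where 8.74% of all 14561 genes were called (682 lower and 591 higher). Those of smallest p were Il17ra, a receptor for interleukin-17 that drives Ccl20 in epithelium (-0.74 ± 0.14), Map3k14, the kinase of the alternative NF-kappaB pathway that governs Cxcl13 (-0.43 ± 0.09), and Dpp4, given above. The other 4 receptors of the 10 chemokines that were tested, besides Ackr3, were Ccr1, which fell, and Ccr4, Cxcr4 and Cxcr5, which did not pass. Ccr3, Ccr6 and Ccr10 were under the filter in every organ. Of 9 tested receptors for other chemokines, 1 was called higher (Cx3cr1, 0.58 ± 0.10) and 1 lower (Ackr1, -1.39 ± 0.25), beside the same 8.74% of all genes. Both were named after their values were seen. Of 12 tested other chemokines, among them the gut chemokine Ccl25 (0.47 ± 0.16, adjusted p = 0.0757), 0 were called and 4 were higher and 2 lower at an unadjusted p under 0.05 (15.3% and 14.8% of all genes).

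The genes whose levels ran most like each member were found over the libraries of the organs where it reached 1 FPKM, after the organ mean was taken off. The libraries share the treatment groups and the 2 that stand apart, so these are descriptions. For Ccl6 they were Cks2 (Pearson r = 0.892, Spearman rho = 0.913), Aif1, a macrophage gene (0.889 and 0.917), and Cd48 (0.877 and 0.866), over 18 libraries and 9209 genes. For Ccl9 they were St3gal4 (r = 0.936), Esd (0.934) and the acute-phase gene Saa1 (0.933). For Cxcl12 they were Stx2 (r = 0.949), Bcs1l (0.929) and Pomt1 (0.923), and for Cxcl14 Rnf149 (0.917), Inhbb (0.914) and Gch1 (0.912). For Ccl17, over 12 intestine and lung libraries, they were Prmt1 (r = 0.972), Slfn2 (0.968) and Mlkl (0.966). Cxcl13 had no close partner, its highest r being 0.709 with Ubxn6 over 18 libraries.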

How the data were processed

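Per the labels' protocols, a stranded TruSeq kit was used on miRNeasy RNA. The submitters' processing notes name Cufflinks 2.2.1, SAMtools 0.1.19, TopHat2 2.0.13 and Bowtie2 2.2.3, and build mm10. The annotation was not given in the sources used here. FPKM were deposited by the authors, 1 table per library. The table of control lung 2 holds 1 further column, equal to control lung 3 (0 values differ), which was not used. Groups follow the sample titles. In the descriptions of H2 replicates 2 and 3 the gas has other digits, taken to be a slip of numbering.

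log2(FPKM + 1) was fitted with limma 3.58.1 in R 4.3.3 (empirical Bayes with trend, two-sided). For each organ the 6 libraries were fitted, with genes whose mean was at least 1 FPKM. The mean over the organs, differences between organs and control organs were fitted on 18 libraries over genes that reach this in at least 1 organ. Benjamini-Hochberg adjustment with a threshold of 0.05 was used. An exact permutation test of 3 against 3 cannot go under 0.1. The fits were tested on simulated data. FPKM tables hold no counts. Implied depth came from the FPKM worth of 1 fragment in genes with 1 transcript and gives no interval. It limits genes near 0. Positions are from GENCODE vM21 and promoters from RefSeq GRCm38.p6.

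The 10 members, the other lists and the tests were chosen with earlier results of these data known. Every member was named. From other lists the named genes were the receptors of members, and the smallest p values of the induced chemokines, regulators and other chemokines. Cxcl1 and Ccl11 were also named, for their share of the induced sums. The 3 genes of highest Pearson r were taken per member. The alternatives comprised an added constant of 0.1 or 5, the filter left out or raised to 5 FPKM, quantile and median-of-ratios scaling, no trend, a robust fit, a replicate block (fixed or random), all 18 libraries in 1 fit, and each library left out. The fit without both control liver 2 and control lung 3 was added after the data were seen.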

Additional observations from a re-analysis of the deposited data

Results flagged for a closer look

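The change of Ccl6 with hydrogen was higher in the intestine than in the lung by 2.14 ± 0.49 on the log2 scale, and that of Ccl9 by 1.93 ± 0.45, each with an adjusted p of 0.0442 in limma's test of the difference. In Ccl6 the H2 libraries were all above the control libraries in the intestine and all below them in the lung. In Ccl9 they overlapped in the intestine. Both results are close to the threshold, and their dependence on single libraries and settings is given with the other alternatives.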

How the results depend on the processing

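In the liver the count of genes called ran from 0 to 2 with 1 library left out, the 2 being without control liver 2, and was 2 without both control liver 2 and control lung 3, an alternative added after the data were seen. In the lung it ran from 0 to 5 with 1 library left out, was 2 with all 18 libraries in 1 fit, and 5 in the added alternative. In the intestine it was 0 in every fit. Over the mean of the organs the 2 calls became 1 (Ccl17) with a pseudocount of 0.1 and with no filter, 1 to 4 with 1 library left out, and 5 in the added alternative. The 8 induced chemokines called there became 5 to 10 with 1 library left out, 5 without control liver 1, control liver 3, H2 liver 3 or H2 lung 2. For the H2 change in the liver minus that in the lung the 0 calls became 1 with a pseudocount of 5 and with median-of-ratios scaling, 0 to 2 with 1 library left out (2 without control liver 2 or control lung 3, 1 without control intestine 1), and 2 in the added alternative. For intestine minus lung the 2 calls became 0 with a pseudocount of 0.1, a mean of at least 5 FPKM, quantile normalization and median-of-ratios scaling, 0 to 4 with 1 library left out, and 5 in the added alternative. Ccl6 kept its call there without control intestine 2, H2 intestine 1, H2 intestine 3, control lung 3 or H2 lung 1, and Ccl9 without control liver 2, H2 intestine 3, control lung 3 or H2 lung 1. The cause was not tested.

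With the replicate number as a fixed replicate block, 1 gene in place of 2 was called over the mean of the organs and 0 in place of 2 for intestine minus lung, and 0 in each organ. As a random replicate block both counts stayed at 2. The correlation of same-numbered libraries was over 0.1 in 3 of 9 cases (-0.11 to 0.33), and 3 of 9 libraries matched their own number best. With 9 cases these correlations and matches cannot decide whether same-numbered libraries share more than a number. The lung gene Scgb1a1 measured 4.30 and 5.07 FPKM in the liver libraries numbered 1 and 3.22 and 5.27 FPKM in those of the intestine. The lung gene Sftpc measured 1.128 and 1.165 FPKM in the same liver libraries and 0.562 and 0.727 FPKM in those of the intestine. Both genes were at 0 in the liver and intestine libraries numbered 2 and 3. The libraries numbered 1 thus share traces of lung transcripts, and the cause was not tested.

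Signs changed in genes close to 0. With 1 library left out, Ccl20 ran from -0.64 to 0.22 in the intestine (positive without control intestine 2), from -1.61 to 0.87 in the lung and from -0.81 to 0.018 over the organs (both positive without control lung 1). Ccl28 ran from -0.46 to 0.067 in the intestine (positive without H2 intestine 3). Cxcl12 ran from -0.22 to 0.32 in the intestine (negative without control intestine 1, H2 intestine 1 or H2 intestine 3). Cxcl13 ran from -0.26 to 0.090 in the lung (positive without control lung 3, H2 lung 2 or H2 lung 3) and from -0.098 to 0.10 over the organs (positive in 8 of 18 fits). It was 0.12 in the lung with quantile normalization, 0.048 there in the added alternative, and 0.0084 over the organs with median-of-ratios scaling. Ccl24 over the organs became 0.014 with quantile normalization. All other changes of single genes kept their sign in every fit that tested them. In the liver Ccl17 rests on about 12.3, 1.53 and 9.33 implied fragments in the control libraries, so depth limits it there.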
